A study of Mus musculus with 6 samples.

Results

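The BCL2 family genes described here are the 10 rows of the deposited table, out of 55450, named Bcl2, Bcl2l1, Mcl1, Bcl2a1b, Bcl2a1d, Bax, Bak1, Bcl2l11, Bbc3 and Bid. They were chosen by name. The libraries hold RNA of regulatory T (Treg) cells, a Foxp3-expressing class of CD4 T cells that holds immune responses in check, sorted from MC38 colon carcinomas of about 8 mm in diameter in C57BL/6 mice. In 3 libraries the Treg cells were Tim-3 deficient and in 3 they were Tim-3 sufficient, and the single comparison of the design is between these groups. Tim-3 is an inhibitory receptor of T cells, encoded by Havcr2. All mice of both groups carried the MC38 tumour, and no treatment is named in the labels. The column names mark the deficient libraries as KO (knockout) and the sufficient ones as WT (wild type). How Tim-3 was removed is not otherwise given in the sources used here. The age of the mice and whether each library came from its own mouse are not given either. The p-values therefore measure the spread between libraries, which may be partly technical.

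BCL2 family proteins decide at the outer membrane of the mitochondrion whether a cell lives. Pro-survival members (BCL2, BCL-XL, MCL1 and A1) hold back BAX and BAK, the effectors that open pores and let cytochrome c out. BH3-only proteins such as BIM, PUMA, NOXA and BID switch the balance by binding to pro-survival members or by activating the effectors. In T cells, BCL2 is maintained by signals of interleukin 7 and related cytokines, A1 is induced by antigen receptor and NF-kB signals, and MCL1 is needed for the survival of Treg cells.

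The deposited values are log2(TPM + 1), in which TPM is a transcript abundance corrected for transcript length and scaled to a fixed library total. TPM keeps no read numbers, so library depth is unknown. The 12155 genes that reached 1 TPM in at least 3 of 6 libraries were tested with limma and Benjamini-Hochberg adjustment over all of them, at a two-sided adjusted p under 0.05. Libraries are named deficient C1, deficient D, deficient dated, sufficient A1, sufficient B1 and sufficient dated after marks in the column names. The dated library of each group is the one whose column name holds a calendar date, whose meaning is not stated. Differences are deficient minus sufficient on the log2(TPM + 1) scale, a scale that compresses the fold of low genes. In bulk RNA, fewer cells of a type and less RNA per cell cannot be told apart.

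Each library held between 11470 and 12681 genes at 1 TPM or more. Havcr2 was at 3.54, 4.27 and 2.55 in the deficient libraries C1, D and dated, against 5.70, 5.64 and 4.49 in the sufficient libraries A1, B1 and dated, so it was lower in each deficient library, with a limma adjusted p of 0.211, and of 0.0148 with the date mark as a block. All 10 Treg cell markers reached that level in at least 3 libraries, and Foxp3 lay between 42.3 and 46.1 TPM in deficient and between 27.2 and 45.0 TPM in sufficient libraries. Summed over the 10 markers, the level was 6596, 8799 and 8954 TPM in the deficient libraries C1, D and dated, against 11449, 11318 and 9417 TPM in the sufficient libraries A1, B1 and dated, so the sum was lower in each deficient library. Among the markers, Trac, Cd3d and Cd3e were lower in each deficient library. The groups overlapped for Foxp3, Il2ra, Ctla4, Ikzf2, Ikzf4, Tnfrsf18 and Cd4. Genes of macrophages and monocytes, 9 of 12 of which reached 1 TPM in at least 3 libraries, stood apart in a library of each group. Their summed level was 1420 TPM in deficient C1, 22.3 in deficient D and 22.4 in deficient dated, against 137 in sufficient A1, 959 in sufficient B1 and 28.4 in sufficient dated. Markers of dendritic cells, 6 of 9 at that level, summed to between 685 and 2208 TPM in deficient and between 247 and 983 TPM in sufficient libraries. Those of B cells, 3 of 6 at that level, summed to between 582 and 793 TPM in deficient and between 338 and 614 TPM in sufficient libraries, and the defining gene Ms4a1 was at 0 in all 6. In the dendritic cell list, Cd74 lay between 487 and 1099 TPM in deficient and between 200 and 507 TPM in sufficient libraries. H2-Ab1 of that list lay between 149 and 773 TPM in deficient and between 34.65 and 313 TPM in sufficient libraries. Flt3 and Clec9a of the same list were at 0 in each deficient library and at no more than 0.81 and 0.14 TPM in sufficient ones. In the B cell list, Ighm lay between 396 and 550 TPM in deficient and between 287 and 441 TPM in sufficient libraries. CD8 T and NK cell markers summed to between 16.7 and 104 TPM in deficient and between 30.5 and 59.8 TPM in sufficient libraries. Neutrophil, tumour and erythroid markers each summed to no more than 29.9 TPM in any library. The part of these cells' transcripts in the results was not tested. Without deficient C1 and sufficient B1, the log2 differences were 1.42 for Bcl2, 0.83 for Bbc3, 0.36 for Bax and -0.62 for Bcl2l1. None of the 10 genes passed, but no tested gene of any kind passed in that fit. The lack of a call there says nothing of the family in particular.

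The most abundant family transcripts came from Bcl2a1b and Bcl2a1d, near-identical genes on chromosome 9 that both encode A1, and their sequences are shown first because they limit how far their values can be told apart. The opening 120 coding bases of these genes and of their neighbour Bcl2a1a are given from GENCODE mouse release 21 on GRCm38, with capitals at the 7 positions where the 3 genes are not identical. Bcl2a1a is at chr9:88957051-88957170 (plus strand), Bcl2a1b at chr9:89199360-89199479 (plus strand) and Bcl2a1d at chr9:88731600-88731719 (minus strand).
Bcl2a1a: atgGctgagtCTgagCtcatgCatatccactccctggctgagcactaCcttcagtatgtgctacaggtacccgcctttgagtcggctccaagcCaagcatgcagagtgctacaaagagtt
Bcl2a1b: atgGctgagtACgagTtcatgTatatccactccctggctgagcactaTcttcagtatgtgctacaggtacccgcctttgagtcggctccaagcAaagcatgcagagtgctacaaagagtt
Bcl2a1d: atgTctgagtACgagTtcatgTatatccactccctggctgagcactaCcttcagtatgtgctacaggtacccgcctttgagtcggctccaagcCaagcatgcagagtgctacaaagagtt
Over the whole coding sequence of 516 bases, Bcl2a1b and Bcl2a1d differed at 6 positions (98.8% identical), Bcl2a1a and Bcl2a1d at 7 (98.6%), and Bcl2a1a and Bcl2a1b at 11 (97.9%). Of the 75-base windows in the Bcl2a1b transcript, 75 bases being the read length, 68.4% also occurred in another gene. Bcl2a1d held 43.5% of all Bcl2a1b windows, and 44.2% were in Gm29094, a gene on the same strand that starts inside Bcl2a1b. Of the windows in Bcl2a1d, 67.6% were shared, with 50.8% found in Bcl2a1a and 40.9% in Bcl2a1b. The division of reads among these genes is an estimate, and each of their separate values is uncertain for that reason. Windows of Bcl2l1, Mcl1, Bcl2l11 and Bbc3 were shared with no other gene, and those of Bid, Bak1, Bax and Bcl2 were shared with an overlapping neighbour in 15.7%, 12.8%, 6.84% and 4.67% of cases.

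The upstream sequences of Bcl2a1b and Bcl2a1d are also alike, and both hold the letters TGAATCA, a match to the AP-1 motif TGANTCA, shown in capitals. The 186 bases come from RefSeq promoter windows on GRCm38.p6 and end before the transcript start of either annotation, at chr9:89199023-89199208 (plus strand) for Bcl2a1b and at chr9:88731915-88732100 (minus strand) for Bcl2a1d.
Bcl2a1b: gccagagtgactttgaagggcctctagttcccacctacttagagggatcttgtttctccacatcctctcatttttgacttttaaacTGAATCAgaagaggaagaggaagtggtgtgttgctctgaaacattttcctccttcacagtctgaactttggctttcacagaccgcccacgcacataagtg
Bcl2a1d: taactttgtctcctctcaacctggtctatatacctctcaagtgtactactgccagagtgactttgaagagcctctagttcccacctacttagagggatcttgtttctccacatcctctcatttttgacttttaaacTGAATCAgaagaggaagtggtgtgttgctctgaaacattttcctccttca
The match lies 93 bases from the GENCODE start of Bcl2a1b and 43 bases from that of Bcl2a1d. Promoter windows of 300 bases were searched on both strands for 4 motifs. The genes looked up were the family genes, Bcl2a1a and Bcl2a1c. Bbc3 and Bcl2l1 had 3 windows each and Bcl2l11 had 2, while each other gene had 1. A gene was named if any of its windows matched, while the percentages are shares of single windows. Genes with more windows thus had more chances of a match. TGANTCA was found in Bcl2a1a, Bcl2a1b and Bcl2a1d and in 7.81% of all 32851 windows. A kappa-B form, GGG then any 2 bases then TTTCC, was found in Bcl2l1, Mcl1 and Bbc3 (1.63% of all windows), the FOXO form TGTTTAC in Bcl2l11 and Bbc3 (3.65%), and the STAT form TTCNNNGAA in none of the genes (8.30%). A match is a run of letters and not a measured binding site.

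In TPM, averaged over the 6 libraries, the order of levels was Bcl2a1b (597), Bcl2a1d (268), Bax (167), Mcl1 (38.8), Bcl2l1 (28.0), Bid (24.9), Bcl2 (6.81), Bcl2l11 (5.01), Bbc3 (2.89) and Bak1 (1.12). Ranges over the 6 libraries did not overlap between Bax and Mcl1 or between Bid and Bcl2. The order of Bcl2a1b above Bcl2a1d held in 6 of 6 libraries. Bcl2a1d was above Bax in 4 of 6, the exceptions being deficient C1 and deficient dated. Mcl1 exceeded Bcl2l1 in 4 of 6 libraries and Bcl2l1 exceeded Bid in 2, so these neighbours were not separated beyond their spread. Bcl2 exceeded Bcl2l11 in the 3 deficient libraries and was below it in the 3 sufficient ones. The effector transcripts were far apart in level, with Bax ranked 916th and Bak1 11610th among the 12155 tested genes, while Bcl2a1b ranked 313th and Bcl2a1d 635th.

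**Figure D1:**
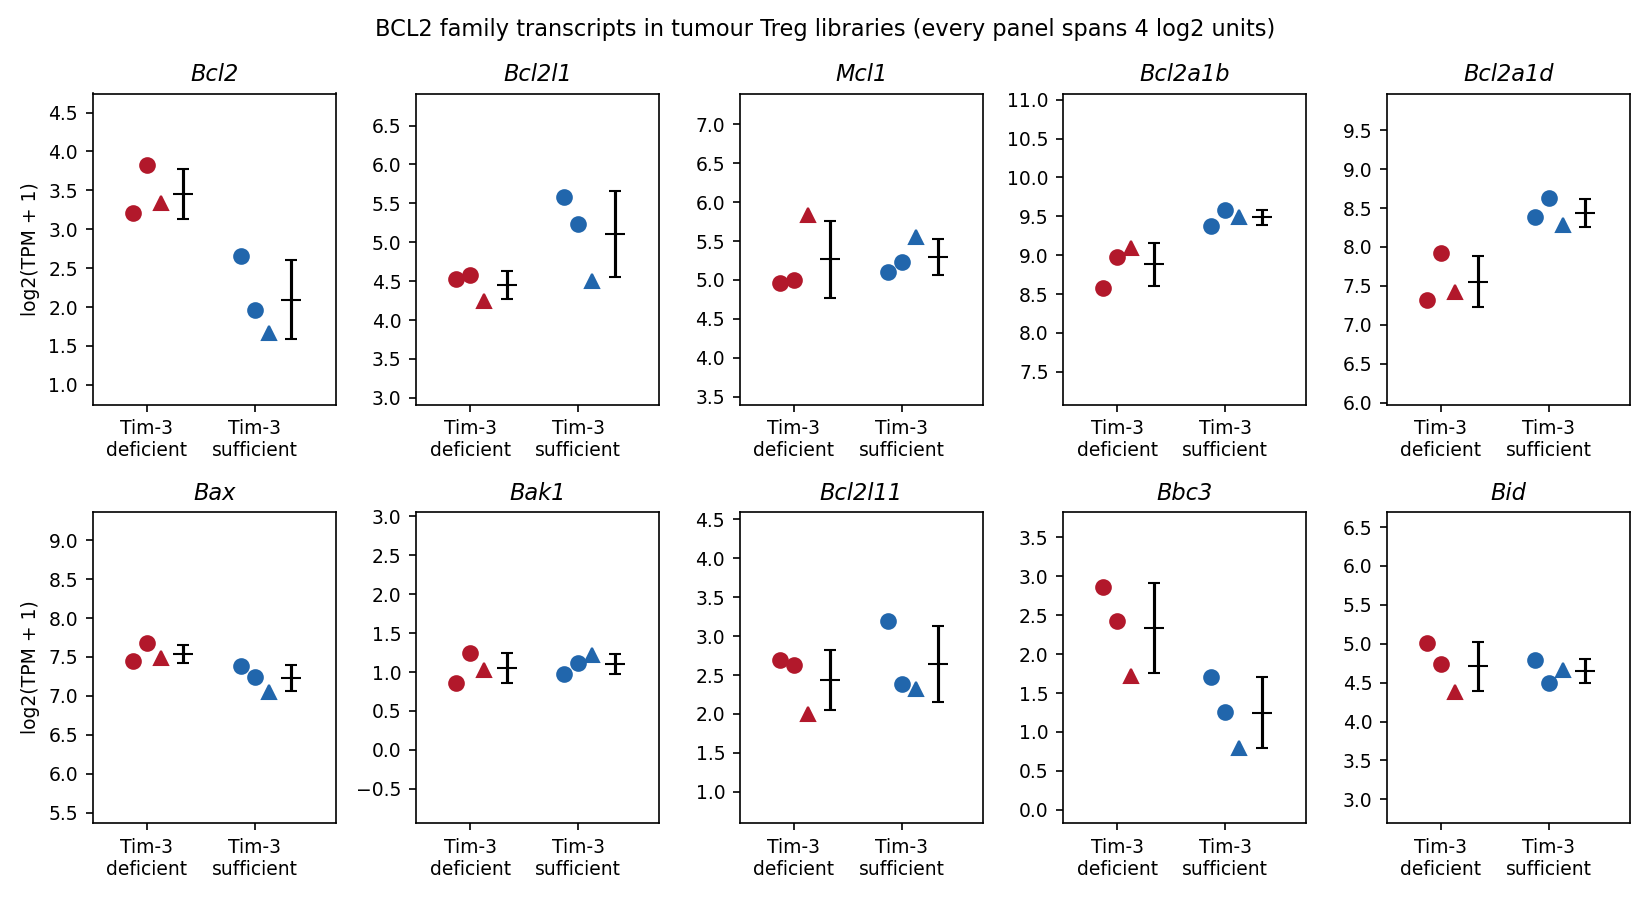
Level of each of the 10 genes as log2(TPM + 1) in 3 Tim-3 deficient (red) and 3 Tim-3 sufficient (blue) libraries, with triangles for the dated libraries and bars for the group mean and SD. Every panel spans the same number of log2 units, and the groups are apart for Bcl2, Bcl2a1b, Bcl2a1d, Bax and Bbc3.

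Transcripts of the pro-survival genes did not share a direction. Bcl2 was higher in each deficient library, the Bcl2a1 genes were lower, and Mcl1 and Bcl2l1 overlapped between the groups. None of the 10 family genes passed the test over all genes, in which 0.206% of the 12155 genes were called. At an unadjusted p under 0.05, which 11.7% of tested genes reached, there were 4. Bcl2 and Bbc3 were higher, as were 6.98% of tested genes at that p, and Bcl2a1b and Bcl2a1d were lower, as were 4.69%. Groups did not overlap with deficient higher for 3 genes, Bcl2, Bax and Bbc3, a pattern seen in 10.9% of tested genes. They did not overlap with deficient lower for 2, Bcl2a1b and Bcl2a1d, against 6.73% of tested genes. The differences of the 10 genes had a median of -0.04, with 4 positive and 6 negative. Over all tested genes the median was 0.09, with 7309 positive and 4846 negative.

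Bcl2 (ENSMUSG00000057329.7, GRCm38 chromosome 1, 106538178 to 106714274, minus strand) encodes the founding pro-survival protein of the family. On the log2(TPM + 1) scale its level was 3.21, 3.82 and 3.33 in the deficient libraries C1, D and dated, against 2.65, 1.96 and 1.67 in the sufficient libraries A1, B1 and dated. Each deficient library was above each sufficient one, and the spread was wider among sufficient libraries, where A1 was highest. The means were 3.46 ± 0.32 in deficient and 2.09 ± 0.51 in sufficient libraries (SD, n = 3 each). This is a log2 difference of 1.36 ± 0.34 (SE), 2.57-fold, with a 95% interval of 0.58 to 2.14 and a limma adjusted p of 0.186. In TPM Bcl2 was at 8.27, 13.1 and 9.08 in deficient and at 5.29, 2.89 and 2.18 in sufficient libraries, so it stayed among the low transcripts of the family in both groups. The 4 undated libraries gave a difference of 1.21 and the dated ones 1.66. The antisense gene D630008O14Rik, which overlaps Bcl2, had at most 1.95 TPM in any library.

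Bcl2a1b (ENSMUSG00000089929.1, chromosome 9, 89199209 to 89207827, plus strand) was at 8.57, 8.98 and 9.09 in the deficient libraries C1, D and dated, against 9.38, 9.58 and 9.49 in the sufficient libraries A1, B1 and dated. It was lower in each deficient library, with C1 lowest. Its mean was 8.88 ± 0.27 in deficient and 9.49 ± 0.10 in sufficient libraries (SD, n = 3 each), a log2 difference of -0.60 ± 0.16 (SE), or 1.52-fold lower, with a 95% interval of -0.98 to -0.22 and a limma adjusted p of 0.22. In TPM the values were 380, 504 and 545 in deficient and 665, 766 and 719 in sufficient libraries.

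Bcl2a1d (ENSMUSG00000099974.1, chromosome 9, 88723285 to 88731914, minus strand) was at 7.32, 7.92 and 7.42 in the deficient libraries C1, D and dated, against 8.38, 8.63 and 8.28 in the sufficient libraries A1, B1 and dated. No deficient library reached the lowest sufficient one. The means of Bcl2a1d were 7.55 ± 0.33 in deficient and 8.43 ± 0.18 in sufficient libraries (SD, n = 3 each). The log2 difference was -0.88 ± 0.19 (SE), or 1.84-fold lower, with a 95% interval of -1.32 to -0.43, and the limma adjusted p of 0.142 was the lowest of the 10 genes. The undated libraries gave -0.89 and the dated ones -0.86 for Bcl2a1d, while Bcl2a1b had -0.70 in the undated and -0.40 in the dated libraries. With the date mark as a block in limma, under which 1.97% of tested genes were called, Bcl2a1d was the single family gene of the 10 to pass, at an adjusted p of 0.05 when rounded, just under the threshold. Without deficient C1 and sufficient B1, the libraries with the highest macrophage transcripts, the log2 differences were -0.66 for Bcl2a1d and -0.40 for Bcl2a1b (limma adjusted p = 0.725 and 0.877). Sufficient A1, with 137 TPM of macrophage and monocyte markers, stayed in that fit. The other libraries kept had 22.3 (deficient D), 22.4 (deficient dated) and 28.4 TPM (sufficient dated). With all 6 libraries the differences were -0.88 for Bcl2a1d and -0.60 for Bcl2a1b. No tested gene passed in the fit without deficient C1 and sufficient B1, so its adjusted p-values cannot show whether these differences were lost. The lowest Bcl2a1b level was in deficient C1 and the highest in sufficient B1. A1 is also expressed by myeloid cells, and the part of the macrophage transcripts in the Bcl2a1 values was not tested.

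The other Bcl2a1 rows were low. Bcl2a1a had 6.69, 0.32 and 2.51 TPM in the deficient libraries C1, D and dated and 1.16, 3.94 and 1.48 TPM in the sufficient libraries A1, B1 and dated. Bcl2a1c lay between 1.50 and 5.05 TPM in deficient and between 2.68 and 6.71 TPM in sufficient libraries, and the groups overlapped for both genes. Because reads can be divided among these rows, the TPM of all 4 was also summed in each library and tested as 1 gene. The sum was 9.10, 9.55 and 9.50 in the deficient libraries C1, D and dated, against 9.97, 10.20 and 10.01 in the sufficient libraries A1, B1 and dated, on the log2(TPM + 1) scale. It was lower in each deficient library, by a log2 difference of -0.68 ± 0.16 (SE), 1.60-fold, with a limma adjusted p of 0.163. Gm29094, which shares its first part with Bcl2a1b, had 1.45, 3.35 and 3.03 TPM in deficient and 6.66, 6.34 and 6.91 TPM in sufficient libraries, with a log2 difference of -1.12 ± 0.31 (SE, limma adjusted p = 0.22).

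Bcl2l1 (chromosome 2, 152780668 to 152831728, minus strand), whose main product in lymphocytes is the pro-survival protein BCL-XL, was at 4.53, 4.58 and 4.25 in the deficient libraries C1, D and dated, against 5.58, 5.23 and 4.50 in the sufficient libraries A1, B1 and dated. The sufficient dated library lay below deficient C1 and D, so the groups overlapped, and the sufficient libraries were the more spread. Bcl2l1 averaged 4.45 ± 0.18 in deficient and 5.10 ± 0.55 in sufficient libraries (SD, n = 3 each), a log2 difference of -0.65 ± 0.29 (SE) with a 95% interval of -1.32 to 0.02 and a limma adjusted p of 0.437. Undated libraries gave -0.85 and dated ones -0.25. Leaving out 1 library at a time gave -0.95 (without sufficient dated) to -0.41 (without sufficient A1), and no such fit called Bcl2l1. A gene-level value holds no information on which BCL-X isoform was made.

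Mcl1 (chromosome 3, 95658788 to 95663176, plus strand), which encodes a short-lived pro-survival protein, was at 4.96, 5.002 and 5.84 in the deficient libraries C1, D and dated, against 5.11, 5.23 and 5.55 in the sufficient libraries A1, B1 and dated. The dated library was the highest of its group in both groups. The means were 5.26 ± 0.50 in deficient and 5.30 ± 0.23 in sufficient libraries (SD, n = 3 each), and the log2 difference of -0.03 ± 0.27 (SE) had a 95% interval of -0.66 to 0.60 (limma adjusted p = 0.98). The sign differed between the undated libraries (-0.19) and the dated ones (0.29). The interval leaves room for a change of either sign.

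Summed over the 9 pro-survival genes in the table, the level was 608, 819 and 805 TPM in the deficient libraries C1, D and dated, against 1088, 1249 and 1104 TPM in the sufficient libraries A1, B1 and dated. Each deficient library was below each sufficient one. The Bcl2a1 rows supplied 90.0%, 91.7% and 89.6% of that sum in deficient and 92.1%, 93.8% and 93.6% in sufficient libraries. Bcl2 supplied 1.36%, 1.60% and 1.13% in deficient and 0.486%, 0.231% and 0.198% in sufficient libraries. The share of Mcl1 was 5.24% ± 1.61 in deficient and 3.38% ± 0.67 in sufficient libraries (SD, n = 3 each). A share of transcripts says nothing of the amounts of protein, which turn over at different rates. The pool is a description, since its genes are those already given, and most of it is a pair of rows.

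**Figure D2:**
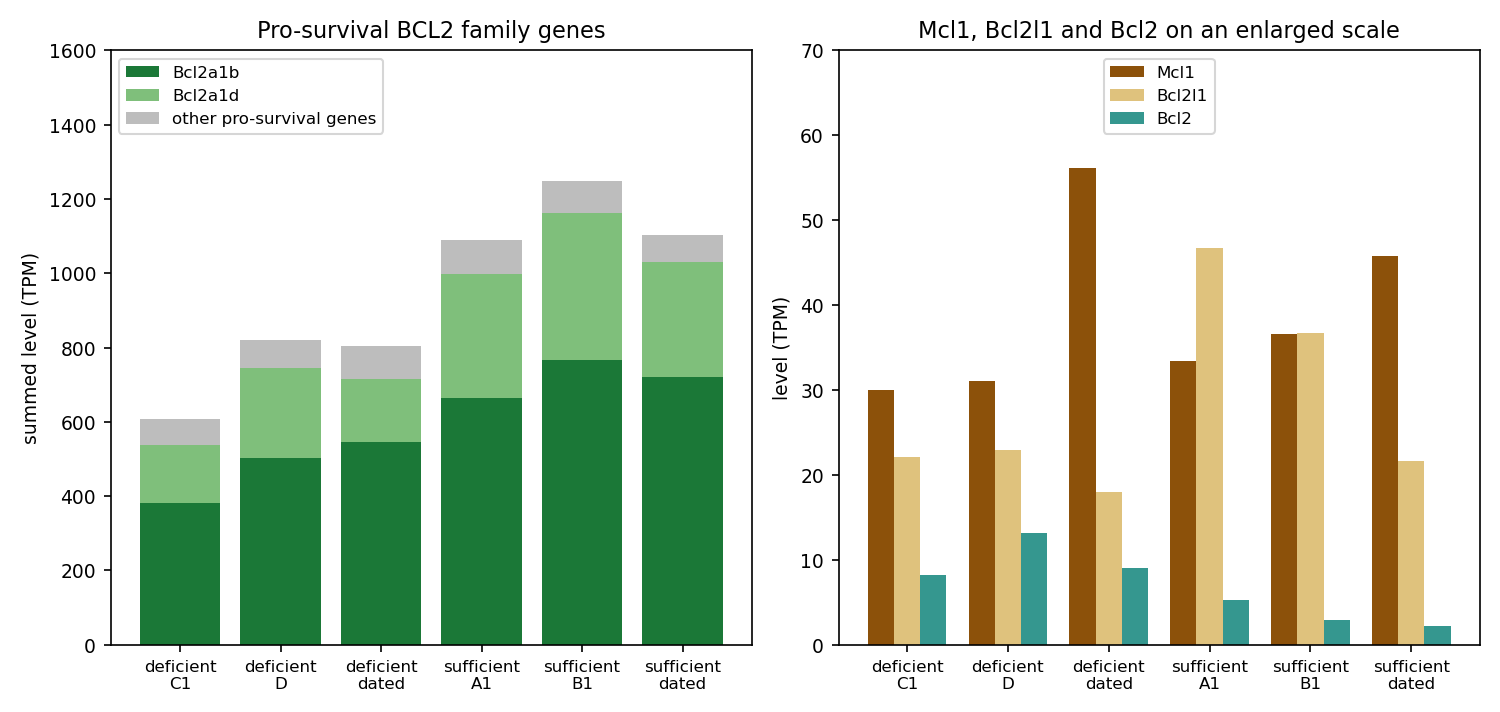
Left, TPM of the 9 pro-survival genes stacked in each library, with Bcl2a1b and Bcl2a1d in green and all others in grey. Right, TPM of Mcl1, Bcl2l1 and Bcl2 in the same libraries on an enlarged axis. The stacks reach 608 to 819 TPM in deficient and 1088 to 1249 TPM in sufficient libraries, and Bcl2 is the lowest bar in each library.

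The pore-forming effectors differed in abundance more than between groups. Bax (chromosome 7, 45461697 to 45466898, minus strand) was at 7.45, 7.67 and 7.48 in the deficient libraries C1, D and dated, against 7.39, 7.24 and 7.05 in the sufficient libraries A1, B1 and dated. The groups did not overlap, but sufficient A1 lay close below deficient C1. Bax averaged 7.54 ± 0.12 in deficient and 7.23 ± 0.17 in sufficient libraries (SD, n = 3 each), a log2 difference of 0.31 ± 0.15 (SE), 1.24-fold, with a 95% interval of -0.03 to 0.66 and a limma adjusted p of 0.461. Undated libraries gave 0.25 and dated ones 0.43. Bak1 (chromosome 17, 27019810 to 27029009, minus strand) was near the filter of 1 TPM, with 0.82, 1.38 and 1.04 TPM in the deficient libraries C1, D and dated and 0.96, 1.16 and 1.33 TPM in the sufficient libraries A1, B1 and dated. Its log2 difference was -0.05 ± 0.28 (SE, 95% interval -0.69 to 0.58, limma adjusted p = 0.957). Part of its windows are shared with Ggnbp1 on the opposite strand, which had up to 1.29 TPM. Bok, the third effector, was not tested, being at 1 TPM or more in 2 libraries, with 5.50, 1.86 and 0.62 TPM in deficient and 0.23, 0 and 0.12 TPM in sufficient libraries. It was higher in each deficient library, and by far the highest in C1.

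Among the 6 tested BH3-only genes, Bbc3, Pmaip1 and Bik were higher in each deficient library, a pattern seen in 10.9% of tested genes. Bcl2l11, Bid and Bad overlapped between the groups. Bbc3 (chromosome 7, 16308393 to 16318205, plus strand) encodes PUMA, a p53 target that binds all pro-survival members. It was at 2.86, 2.43 and 1.72 in the deficient libraries C1, D and dated, against 1.70, 1.25 and 0.79 in the sufficient libraries A1, B1 and dated. The groups were separate by 0.01 log2 units, between deficient dated and sufficient A1. Within each group the dated library was lowest, and the means were 2.34 ± 0.58 in deficient and 1.25 ± 0.46 in sufficient libraries (SD, n = 3 each). The log2 difference of 1.09 ± 0.39 (SE), 2.13-fold, had a 95% interval of 0.18 to 1.997 and a limma adjusted p of 0.339. Undated libraries gave 1.17 and dated ones 0.93. In TPM Bbc3 was at 6.28, 4.39 and 2.29 in deficient and at 2.26, 1.38 and 0.73 in sufficient libraries.

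Bcl2l11 (chromosome 2, 128126038 to 128162547, plus strand) encodes BIM, which removes T cells when growth factors are withdrawn. It was at 2.69, 2.63 and 1.99 in the deficient libraries C1, D and dated, against 3.20, 2.38 and 2.32 in the sufficient libraries A1, B1 and dated. The highest library was sufficient and the lowest deficient, with the rest intermixed. The log2 difference was -0.20 ± 0.35 (SE, 95% interval -1.01 to 0.61, limma adjusted p = 0.861).

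Bid (chromosome 6, 120891930 to 120916853, minus strand) encodes the protein that caspase 8 cleaves to link death receptors to mitochondria. It was at 5.004, 4.74 and 4.38 in the deficient libraries C1, D and dated, against 4.79, 4.49 and 4.66 in the sufficient libraries A1, B1 and dated. Deficient libraries held both the highest and the lowest value. The log2 difference was 0.06 ± 0.22 (SE, 95% interval -0.45 to 0.57, limma adjusted p = 0.937), being 0.23 for undated and -0.28 for dated libraries, and its sign was negative under quantile normalization and median centring. Bcl2l13, in which 15.7% of the windows of Bid also occur, had a log2 difference of 0.21 ± 0.34 (SE).

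Pmaip1 and Bik, further BH3-only genes outside the 10, were measured at levels where their libraries can be set beside those of Bbc3. Pmaip1 (chromosome 18, 66458533 to 66465565, plus strand) encodes NOXA, a selective partner of MCL1 and A1. It was at 5.85, 6.35 and 6.40 in the deficient libraries C1, D and dated, against 5.03, 4.88 and 5.42 in the sufficient libraries A1, B1 and dated. Each deficient library was above each sufficient one, with means of 6.20 ± 0.30 in deficient and 5.11 ± 0.28 in sufficient libraries (SD, n = 3 each). The log2 difference of 1.09 ± 0.22 (SE), 2.13-fold, had a limma adjusted p of 0.119, and of 0.0294 with the date mark as a block. Bik averaged 3.30 ± 0.17 in deficient and 2.33 ± 0.25 in sufficient libraries (SD, n = 3 each), a log2 difference of 0.97 ± 0.26 (SE, limma adjusted p = 0.218). Bad, whose product is inactivated by AKT phosphorylation, was at 5.61 ± 0.21 in deficient and 5.29 ± 0.16 in sufficient libraries (SD, n = 3 each), and the groups overlapped (limma adjusted p = 0.54).

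Other family genes were too low to test. Bcl2l2, a pro-survival gene, lay between 0.43 and 0.64 TPM in deficient and between 0.46 and 1.73 TPM in sufficient libraries. Bmf, a BH3-only gene, lay between 0.06 and 0.98 TPM in deficient and between 0 and 0.72 TPM in sufficient libraries. Hrk was listed at 0 in all libraries but sufficient dated (0.04 TPM), and Bcl2l10 was listed at 0 in all 6.

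Set out by role, the 6 tested of 8 BH3-only genes had a median log2 difference of 0.64, with 5 positive and 1 negative. The 7 tested of 9 pro-survival genes had a median of -0.36, with 2 positive and 5 negative, and 4 of these 7 are the Bcl2a1 rows that share sequence. The 2 tested effectors had a median of 0.13, and all tested genes one of 0.09, with 7309 positive and 4846 negative. In each role none was called by limma, against 0.206% of tested genes. An unadjusted p under 0.05, reached by 11.7% of tested genes, was reached by 3 BH3-only genes, 3 pro-survival genes and 0 effectors. These counts describe short lists and carry no test.

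**Figure D3:**
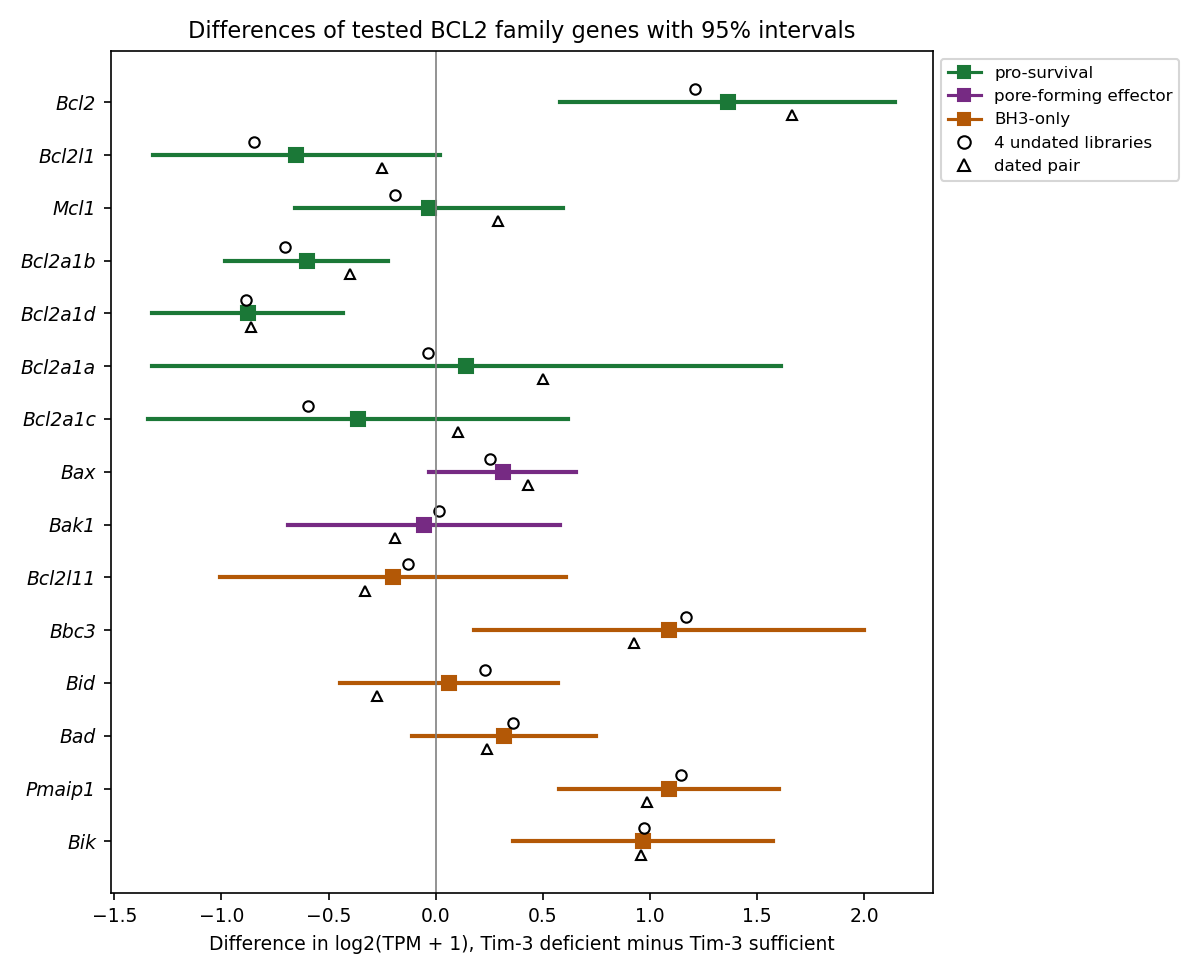
Difference in log2(TPM + 1), Tim-3 deficient minus Tim-3 sufficient, of the tested family genes, as squares with 95% intervals coloured by role. Circles give the difference among the 4 undated libraries and triangles that of the dated pair. Intervals of Bcl2, Bcl2a1b, Bcl2a1d, Bbc3, Pmaip1 and Bik lie to 1 side of 0, before adjustment over all genes.

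Downstream of the family, no gene of the caspase machinery was called. All 13 genes of the apoptosome and caspase list were tested, 0 reached an unadjusted p under 0.05 with deficient higher and 2 with deficient lower, against 6.98% and 4.69% of all tested genes. Their median log2 difference was -0.02. For Casp6, an executioner caspase, the levels were 5.66 ± 0.04 in deficient and 6.15 ± 0.08 in sufficient libraries (SD, n = 3 each, limma adjusted p = 0.256). Apaf1, the scaffold of the apoptosome, had a log2 difference of -0.43 (limma adjusted p = 0.485).

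The death receptor pathway feeds into the family through BID, and 11 of its 11 listed genes were tested with none called. Fasl, the ligand of the death receptor Fas, came nearest, with 5.45 ± 0.29 in deficient and 6.68 ± 0.04 in sufficient libraries (SD, n = 3 each), a log2 difference of -1.23 ± 0.18 (SE, limma adjusted p = 0.0562). With the date mark as a block its adjusted p was 0.0234. Cflar, which encodes the caspase 8 inhibitor c-FLIP, differed by -0.63 (limma adjusted p = 0.233), and Tradd, an adaptor of TNF receptor 1, by 0.42 (limma adjusted p = 0.39).

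Of 15 p53 target and pathway genes, 13 were tested and none was called. The 3 of smallest p were Pmaip1, Phlda3 and Bbc3, all higher in each deficient library. Over the 13 tested genes, groups did not overlap with deficient higher for 4 and with deficient lower for 0. The shares over all tested genes were 10.9% and 6.73%. Phlda3, an inhibitor of AKT, averaged 3.10 ± 0.92 in deficient and 1.49 ± 0.24 in sufficient libraries (SD, n = 3 each, limma adjusted p = 0.236). In TPM Phlda3 was at 16.6, 5.91 and 4.18 in the deficient libraries C1, D and dated, so it was by far the highest in C1. The list's median log2 difference was 0.26, with 11 positive and 2 negative. Over all tested genes the median was 0.09, with 7309 positive and 4846 negative. Bbc3, Pmaip1 and Bax belong to this list and to the family, so the counts are not separate.

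**Figure D4:**
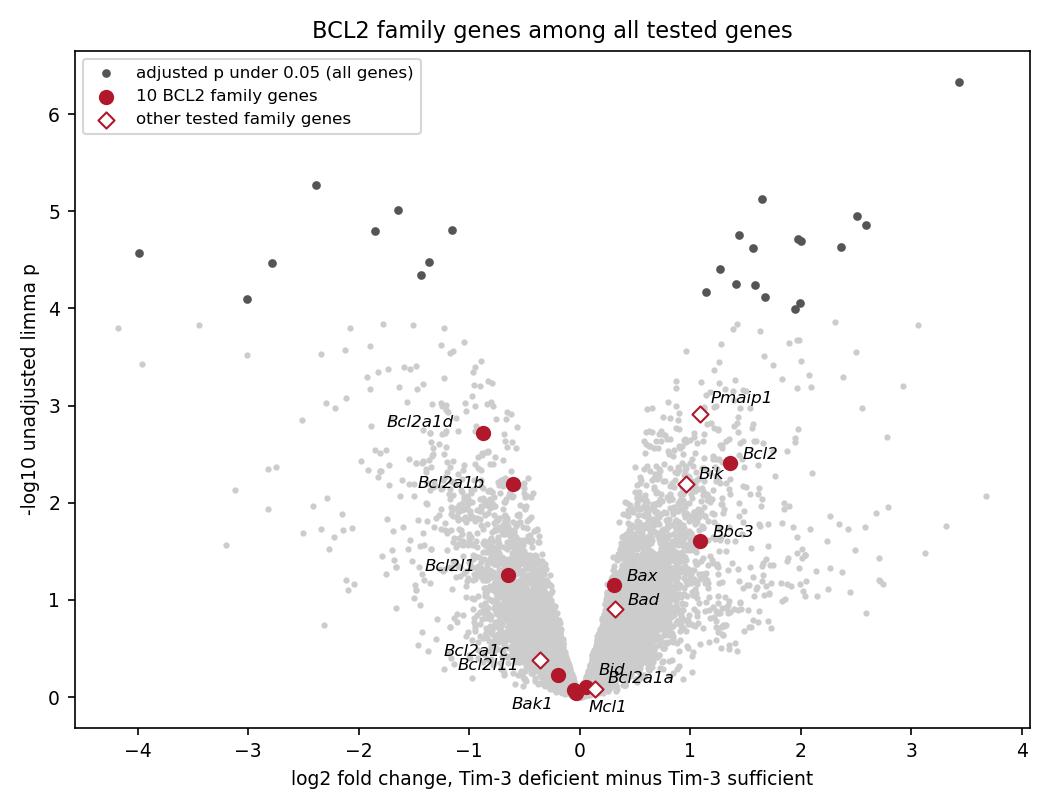
Log2 difference, Tim-3 deficient minus Tim-3 sufficient, against -log10 of the unadjusted limma p for all 12155 tested genes (grey), with the 25 called genes in dark grey, the 10 family genes as filled red circles and other tested family genes as open diamonds. The family genes all lie below the called genes.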

How the data were processed

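Per the labels' protocols, sorted Treg cells were lysed in plates, and their Nextera XT libraries were sequenced as read pairs of 75 bp. STAR, RSEM and limma, with the builds GRCm38 and mm10, are named in the submitters' processing notes without versions or roles. The values deposited by the authors are on the log2 scale. Raised back and reduced by 1, they summed to between 999999 and 1000001 per library, so they were taken as log2(TPM + 1). All 55450 identifiers matched GENCODE mouse release M21 on GRCm38. No label says that strand was kept, so genes overlapping on opposite strands cannot be separated.

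The fit used lmFit and eBayes with a mean-variance trend (limma 3.58.1, R 4.3.3) on the deposited log2 values, with no covariate. It was checked on simulated data. Tables, figures and sequences were made with Python 3.11.15, pandas 2.3.3, matplotlib 3.10.9 and Biopython 1.88. Windows of 75 bases were compared over all GENCODE transcripts. Promoters came from a RefSeq table, and proteins were not used here. The alternatives changed the genes tested, the normalization, the pseudocount, the variance model, the threshold, the block or the libraries. All family genes are named. From each other list the 3 genes of smallest p are given, with any that passed, except 1 gene that is not reported here. Genes, lists and alternatives were chosen with earlier results of these data known.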

Additional observations from a re-analysis of the deposited data

How the results depend on the processing

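No paired analysis was possible because the columns carry no replicate numbers. The 25 genes called over all tested genes became 1 with no filter on low values, 38 with quantile normalization, 4 with no mean-variance trend, 240 with the date mark as a block, 0 without deficient C1 and sufficient B1, 215 without both dated libraries and 90 at an adjusted p under 0.1, and leaving out 1 library at a time gave 0 (without deficient D, or without sufficient B1) to 121 (without deficient dated). The number of the 10 family genes called was 0 throughout, except 1, Bcl2a1d, in the fit with the date block. Of 160 values of single family genes under alternatives, 144 kept their sign and side of the threshold. The sign turned in 15, all of genes whose groups overlapped. Without deficient C1 and sufficient B1 the log2 difference was 0.0442 for Bak1, -0.165 for Bid and 0.0925 for Mcl1, without both dated libraries it was 0.0165 for Bak1, and for Bid it was -0.0683 with quantile normalization and -0.0739 with median centring. Leaving out 1 library at a time gave -0.154 to 0.039 for Bak1, -0.0865 to 0.224 for Bid, -0.316 to 0.124 for Mcl1, -0.354 to 0.0828 for Bcl2l11, 1.15 to 1.64 for Bcl2, 0.83 to 1.40 for Bbc3, -0.95 to -0.41 for Bcl2l1, -0.71 to -0.45 for Bcl2a1b and -1.06 to -0.76 for Bcl2a1d. Apart from the constructions named, the cause of these shifts was not tested. Median centring moved the median of all genes by -0.13 on the log2 scale, and none of the 10 genes but Bid turned its sign under it. Read depth is unknown, so what it limits could not be computed.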

Other observations

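Lists of cytokine inputs, NF-kB inputs and genes for the turnover of MCL1 protein were measured in the same fit. None of the genes in these lists was called without a block, and their effect on the survival genes was not tested. Of 16 cytokine input genes, all were tested, 2 reached an unadjusted p under 0.05 with deficient higher and 1 with deficient lower, against 6.98% and 4.69% of all tested genes. The median log2 difference was -0.04. Il7r, the receptor chain for interleukin 7, averaged 7.93 ± 0.27 in deficient and 6.54 ± 0.49 in sufficient libraries (SD, n = 3 each) on the log2(TPM + 1) scale, a log2 difference of 1.39 ± 0.26 (SE, limma adjusted p = 0.0964, and 0.0182 with the date mark as a block). Il7r was higher in each deficient library, as were Bcl2 and 10.9% of all tested genes, and a link between Il7r and Bcl2 was not tested. Pim1, a survival kinase induced by STAT5, averaged 6.78 ± 0.17 in deficient and 7.80 ± 0.37 in sufficient libraries (SD, n = 3 each, limma adjusted p = 0.115, and 0.0347 with the date mark as a block). Pim2, a related kinase, lay the other way, with 4.37 ± 0.28 in deficient and 3.48 ± 0.34 in sufficient libraries (SD, n = 3 each, limma adjusted p = 0.251). Stat5b, a transcription factor downstream of these receptors, averaged 4.998 ± 0.80 in deficient and 3.97 ± 0.74 in sufficient libraries (SD, n = 3 each), and the groups overlapped. Its log2 difference of 1.03 ± 0.48 (SE) had a limma adjusted p of 0.452, and of 0.0378 with the date mark as a block.

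All 12 NF-kB input genes were tested, with 2 higher and 2 lower in deficient libraries at an unadjusted p under 0.05, against 6.98% and 4.69% of all tested genes, and a median log2 difference of 0.09. Tnfaip3, the NF-kB inhibitor A20, averaged 8.69 ± 0.47 in deficient and 7.74 ± 0.43 in sufficient libraries (SD, n = 3 each, limma adjusted p = 0.251, and 0.028 with the date mark as a block). Nfkb1, which encodes p105 and p50, averaged 5.66 ± 0.14 in deficient and 6.26 ± 0.39 in sufficient libraries (SD, n = 3 each, limma adjusted p = 0.339). Of 8 genes for the turnover of MCL1 protein, 7 were tested and none reached an unadjusted p under 0.05. Their median log2 difference was -0.21, with 1 positive and 6 negative, against 7309 positive and 4846 negative over all tested genes. Fbxw7, Gsk3b and Gsk3a, the 3 of smallest p, had -0.39, -0.29 and -0.28.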
